A study of Mus musculus with 5 samples.

Results

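Among the barcodes of 7-day mouse salivary gland organoids (mSGOs), those with a large share of Malat1 were described. The 3 libraries from day 7 were used. A barcode was a member when it had at least 500 unique molecular identifiers (UMIs, counts of distinct captured RNA molecules), a share of mitochondrially encoded (mt-) UMIs of at most 5% and a Malat1 share of at least 10%. This gave 198 members in the control, 530 in the photon and 459 in the proton library, or 1187 of the 44975 day 7 barcodes and of the 72788 barcodes in the series. Barcodes of the same library with a Malat1 share of 1 to 10% served for comparison and numbered 850, 1061 and 921.

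The organoids were grown from submandibular gland cells of C57BL/6 mice, 8 to 12 weeks old and, per the study's methods, female. The labels give 4 animals as the source and do not say which barcode came from which. Control organoids were not irradiated, while the others received 7 Gy of photons from a cesium source, or 7 Gy in the plateau of a proton beam, on day 5, and all were collected on day 7. All were cultured in Matrigel in a medium with Wnt3a- and R-spondin1-conditioned medium, the kinase inhibitor Y27632, EGF, FGF2, insulin and dexamethasone. From each suspension 45000 cells that excluded propidium iodide, a dye that enters cells with a broken membrane, were sorted. Each treatment was 1 library, so no difference between treatments could be tested. Members and comparison barcodes were split by their own values, so that contrast is described without a test, and every interval given is a 95% interval for counting error only.

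Malat1 is a long non-coding RNA that stays in the nucleus, where it sits in the speckles that store splicing factors. Xist, which coats the inactive X chromosome, and Neat1, the scaffold of paraspeckles, are also kept in the nucleus, whereas mRNAs of ribosomal proteins and metabolic enzymes are mostly in the cytoplasm. A high Malat1 share of a droplet is therefore often read beside its total RNA and its mitochondrial share.

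Malat1 (ENSMUSG00000092341) lies on the minus strand of chromosome 19 from 5845717 to 5853602 in the GENCODE vM39 annotation of GRCm39. Its longest annotated transcript has 7886 bases. The stretch around its only run of at least 10 A is shown, since oligo-dT primers pair with runs of A, with the run in capitals.
Malat1: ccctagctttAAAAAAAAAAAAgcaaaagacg
The 12 A lay at bases 7576 to 7587 of the transcript. A run of at least 10 A inside the longest transcript, away from its 3′ end, was found in 15.8% of the genes in the count matrix that had an annotated transcript.

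Members made up 2.88% (2.50 to 3.30) of the control barcodes with at least 500 UMIs and at most 5% mt-, 2.90% (2.66 to 3.15) of the photon and 2.57% (2.34 to 2.81) of the proton barcodes. The 3 intervals overlapped. They did not all overlap with other limits. Among barcodes of at least 1000 UMIs members were 6.57% (5.67 to 7.57), 4.43% (4.06 to 4.83) and 5.27% (4.80 to 5.77), and with a Malat1 limit of 5% they were 7.26% (6.66 to 7.90), 5.81% (5.48 to 6.16) and 5.57% (5.24 to 5.92), so the control then lay above the photon library. Under 1% Malat1 were 5824, 16693 and 16504 barcodes. Of the barcodes that reached 1% Malat1, members were 18.9% (16.6 to 21.4) in the control, 33.3% (31.0 to 35.7) after photons and 33.3% (30.8 to 35.8) after protons. On this denominator both irradiated libraries lay above the control beyond counting error, with 1 library each. The denominator itself differed: 850 of 6872 control barcodes had 1 to 10% Malat1, against 1061 of 18284 photon and 921 of 17884 proton barcodes. The libraries held 16908611, 30957157 and 29509628 UMIs over 7151, 19189 and 18635 barcodes. With each barcode thinned to 500 UMIs the shares on this denominator were 19.2%, 33.1% and 36.1%.

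The mt- limit removed about as many barcodes with high Malat1 as it kept. At any mt- share, 10% Malat1 was reached by 379 control, 1179 photon and 1032 proton barcodes, and 47.8%, 55.0% and 55.5% of these exceeded 5% mt-. The lowest member had a Malat1 share of 10.02% in each library, and the highest barcode left out had 9.997%, 9.98% and 9.98%. Just above the limit, at 10 to 11%, there were 33, 45 and 51 barcodes, and just below it, at 9 to 10%, there were 38, 66 and 95. The limit thus cut a continuous range. Barcode sequences were rarely shared between libraries: 8 members had a sequence that another library also held, and none was a member in both.

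Members held fewer molecules than the comparison barcodes and more than barcodes with little Malat1, by their medians. Median UMIs per member were 1764.5, 1974.5 and 2280 for control, photons and protons, against 6645, 6070 and 6389 in the barcodes with 1 to 10% Malat1 and 857, 1052 and 961 in those under 1%. The median mt- share was 3.32%, 3.26% and 3.10% in members and 1.20%, 1.58% and 1.54% in the comparison barcodes. Malat1 took 14.98%, 16.1% and 16.1% of all UMIs of members, and the next gene, Gm42418, which overlaps a ribosomal RNA repeat, took 1.72%, 1.57% and 1.60%. Malat1 was thus the leading gene but not most of the RNA: the 79 ribosomal protein genes together held 26.7%, 25.9% and 26.5% of UMIs.

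**Figure D1:**
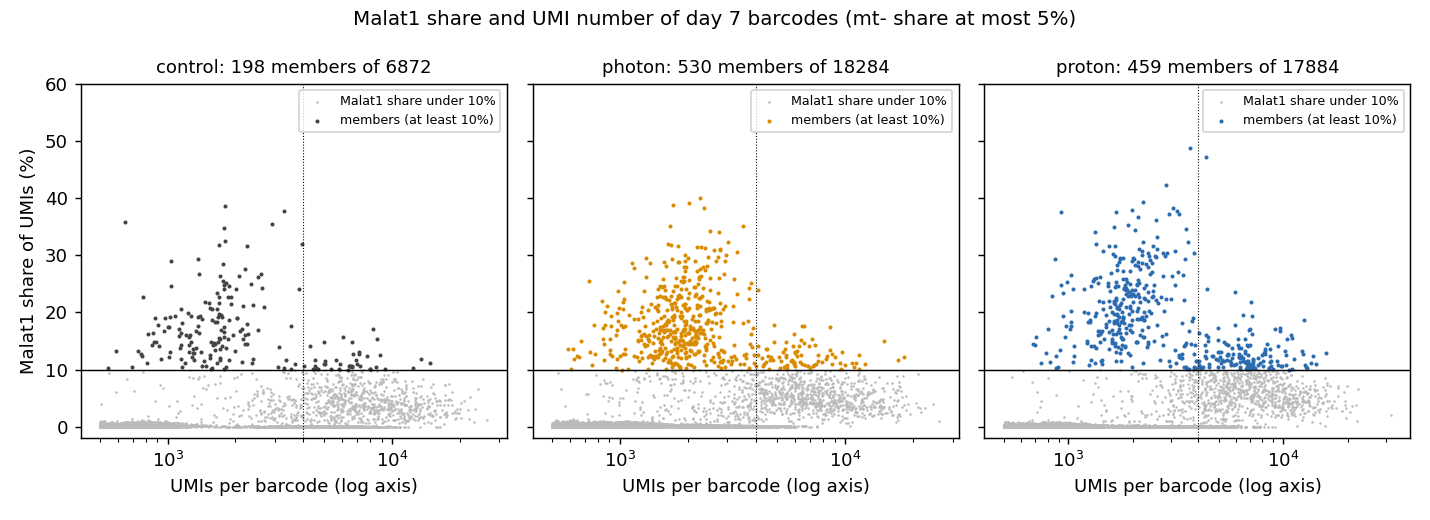
Each point is a barcode with an mt- share of at most 5%, placed by its UMIs (log axis) and its Malat1 share in percent, with 1 panel per day 7 library, the 10% limit as a line and 4000 UMIs dotted. Members (coloured) lie mostly under 4000 UMIs, where most of the highest Malat1 shares are, and the 40, 81 and 141 members beyond it have medians closer to the limit.

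Epithelial keratins were detected in nearly all members. Krt14, a basal duct keratin, had UMIs in 192 of 198, 526 of 530 and 457 of 459 members, at 4921, 5119 and 5391 CPM (UMI counts scaled to a fixed total, here always the total without Malat1). Its log2 ratio to the comparison barcodes was -0.14 in the control, -0.04 in the photon and -0.02 in the proton library. Barcodes under 1% Malat1 had 6505, 6482 and 6598 CPM of Krt14. No group of barcodes here lacks this gene, so keratin RNA of the cell and free keratin RNA cannot be told apart. Krt5, its partner keratin, was at 2079, 1853 and 1773 CPM in members against 2201, 2304 and 2065 in comparison barcodes. Markers of other cell types had few UMIs over all 1187 members: 121 UMIs for the immune list, 47 for the endothelial, 61 for the fibroblast, 11 for secretory acinar and 0 for erythroid genes. Csf1r, a macrophage receptor, had 1 UMI in all, in the proton library. Trp63, the transcription factor that keeps epithelia basal, was at 156.6, 133.6 and 149.4 CPM in members against 112.6, 96.74 and 94.39 in comparison barcodes, and 36.64, 38.79 and 44.76 under 1% Malat1, so it was highest in members in each library. Epcam, an adhesion protein of epithelia, was lower in members, at 545.9, 615.9 and 558.7 CPM against 908.1, 841.3 and 886.6. Basal duct genes as a list were split, with 6 of 12 higher and 5 lower in all 3 libraries, beside 34% and 37.8% of all genes.

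The genes of members were set against the comparison barcodes in each library by log2 ratios of CPM. A gene was compared when it would have at least 10 UMIs in the smaller group at an equal level, which held for 4362 genes in the control, 7158 in the photon and 7409 in the proton library. Since Malat1 and mt- UMIs of the same barcodes chose the members, these ratios are a description. At least 2-fold higher in members were 365 genes (8.37%), 380 (5.31%) and 198 (2.67%), and at least 2-fold lower were 182 (4.17%), 142 (1.98%) and 234 (3.16%). In all 3 libraries at once, 78 of 4362 genes (1.79%) were at least 2-fold higher and 3 (0.0688%) at least 2-fold lower. With CPM over all UMIs these became 32 and 13.

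Transcripts kept in the nucleus were higher in members. All 5 genes of this list compared in every library were higher, beside 34% of all genes. Xist was at 1381 CPM in control, 1490 in photon and 1155 in proton members and at 479.7, 477.5 and 495.6 in the comparison barcodes, a log2 ratio of 1.52 (1.40 to 1.65), 1.64 (1.56 to 1.73) and 1.22 (1.13 to 1.31). Neat1 stood at 2662, 2054 and 1782 CPM against 989.2, 931.0 and 804.4. Members were above comparison barcodes in each library for both. Tsix, the antisense partner of Xist, had the highest ratios of all genes compared, ranked by the smallest of the 3 values, 2.59, 2.39 and 2.29, and Kcnq1ot1, the antisense RNA of an imprinted locus, had 1.59, 1.06 and 1.29. Tsix and Xist overlap on opposite strands, and whether the counting used strand is not given in the sources used here.

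Genes of the splicing machinery followed. Of 29 genes, 27 were higher in all 3 libraries, beside 34% of all genes, and none was lower in all 3. The list's median log2 ratio was 1.28, 0.98 and 0.79, beside medians of -0.01, -0.00 and -0.04 over all genes compared. Rbm39, a splicing factor of the SR-related family, was at 1057, 985.2 and 1009 CPM in members against 433.5, 447.7 and 491.7. Srrm2, a speckle scaffold protein, had log2 ratios of 1.26, 0.98 and 0.99. Luc7l3, a partner of the U1 particle, was at 193.5, 84.66 and 98.38 CPM in members against 56.56, 32.20 and 39.81. Prpf4b, a kinase of the spliceosome, was the third gene of the ranking, with log2 ratios of 2.00, 1.54 and 1.63.

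Chromatin regulators were also higher, 23 of 24 compared genes in all 3 libraries, beside 34% of all genes. Their medians were 0.95, 0.83 and 0.61. Ncor1, a corepressor of nuclear receptors, was at 356.7, 447.4 and 446.7 CPM in members against 225.1, 246.1 and 245.0. Other genes at the top of the ranking had mixed roles. Alkbh1, a demethylase of nucleic acids, had log2 ratios of 1.80, 1.90 and 1.66. Paxbp1 had 1.88, 1.91 and 1.48, Smc5, of a complex that acts in DNA repair, 1.40, 1.65 and 1.40, and Nfat5, the transcription factor of the response to high salt, 1.83, 1.70 and 1.35. Chka, Wee1, Nfkbiz, Smg1 and Fubp1 completed the 12 genes, each at least 1.28 in every library.

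**Figure D2:**
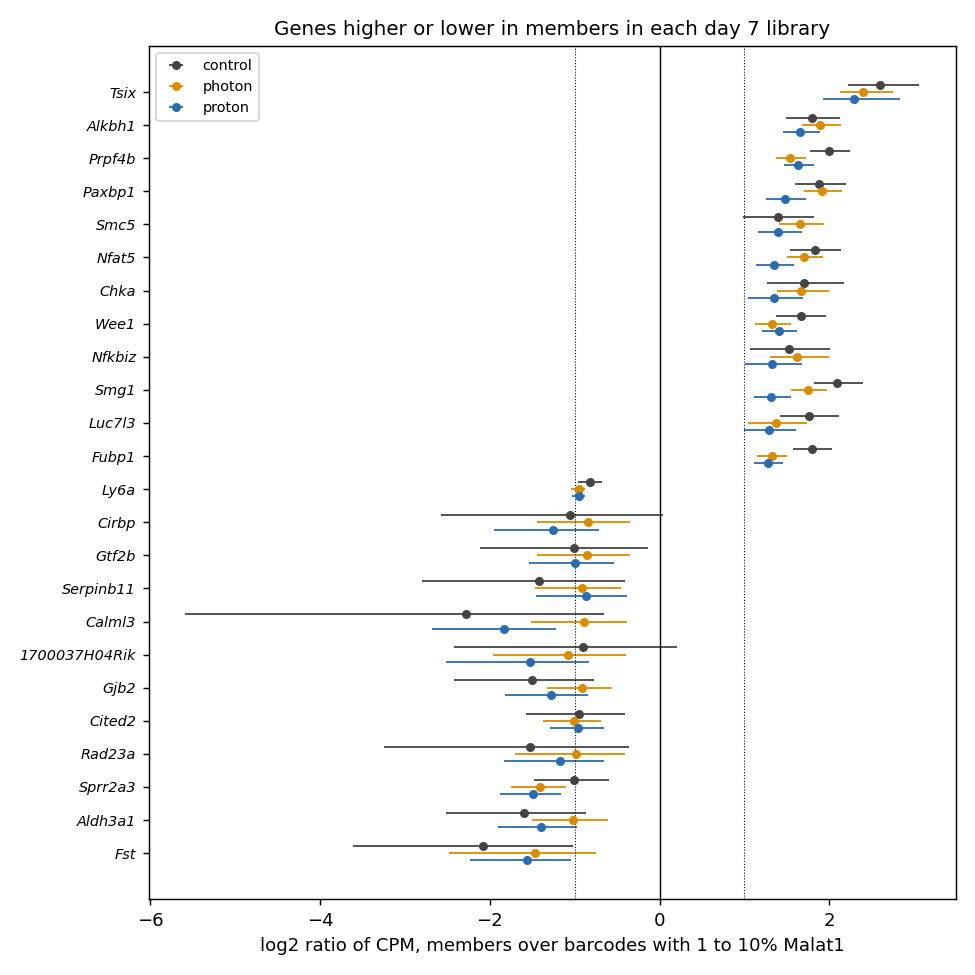
Log2 ratio of CPM, members over barcodes with 1 to 10% Malat1, for the 12 genes with the highest and the 12 with the lowest ratio nearest to 0 in all 3 libraries, with 95% counting intervals and dotted lines at 2-fold. The 12 higher genes lie above 1 in every library, led by Tsix, while the lower genes have wider intervals, and for Cirbp and 1700037H04Rik the control interval includes 0.

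Genes that overlap or depend on ribosomal RNA were higher in members than in comparison barcodes, 4 of 4 in all 3 libraries, beside 34% of all genes. Their summed log2 ratios were 1.02, 0.82 and 0.71. Barcodes under 1% Malat1 had 21368, 30092 and 30783 CPM of this list, against 24787, 23462 and 21372 in members. Members thus lay below them in both irradiated libraries. AY036118 was at 4384, 4508 and 2124 CPM in members against 2038, 2192 and 1237 in comparison barcodes, so the proton library was lowest in both groups. This gene and Gm42418 lie in or near ribosomal RNA repeats, and their reads may come from the repeat, which makes their counts uncertain.

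Mitochondrially encoded transcripts, whose share the rule limited, were higher in members: 12 of 12 genes in all 3 libraries, beside 34% of all genes. Their medians were 1.17, 0.98 and 0.77. The summed list had log2 ratios of 1.10, 0.90 and 0.70. Nuclear genes of the respiratory chain went the other way, with 59 of 63 lower in all 3 libraries beside 37.8% of all genes. Their summed log2 ratio was -0.38 (-0.42 to -0.35), -0.25 (-0.27 to -0.23) and -0.20 (-0.22 to -0.18). The enzyme subunit mt-Co1, of cytochrome oxidase, was at 9253, 10250.4 and 9102 CPM in members against 4420, 5458 and 5562. Both kinds of gene code for the same complexes but are transcribed in different compartments.

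Of 19 cytoskeletal genes 16 were lower in all 3 libraries, and of 20 genes of cytosolic metabolism 15. Over all genes, 37.8% were lower in all 3 libraries. Ribosomal protein genes were lower by little: 56 of 77 in all 3 libraries, with a summed log2 ratio of -0.18, -0.10 and -0.02. With members taken from 5% Malat1 upward the ratios were 0.07, 0.09 and 0.17. Of luminal duct genes 8 of 11 were lower in all 3, among them Wfdc2, a secreted protease inhibitor, at 878.6, 910.5 and 815.1 CPM against 1619, 1384 and 1304. Ly6a, a surface protein used as a stem cell marker, had log2 ratios of -0.82, -0.95 and -0.95. The stem/progenitor II list, named after a population of the study, had summed log2 ratios of -0.54, -0.39 and -0.52. Ly6d held 56.7% of the member UMIs of this list. The list's medians were 0.07, 0.10 and 0.07, and of its 6 genes 2 were higher and 2 lower in all 3 libraries.

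At the low end of the ranking stood genes with few UMIs in members. Fst, the secreted activin inhibitor follistatin, had 6, 13 and 27 UMIs in members, and log2 ratios of -2.08 (-3.61 to -1.02), -1.47 (-2.48 to -0.75) and -1.56 (-2.23 to -1.05). Aldh3a1, an aldehyde dehydrogenase, and Sprr2a3, a cornified envelope protein, were the other genes at least 2-fold lower in all 3 libraries. Cited2, a co-regulator of transcription, was at 58.72, 67.23 and 68.94 CPM in members against 113.9, 136.6 and 134.7. Gjb2, a gap junction protein, had log2 ratios of -1.51, -0.92 and -1.28. Cornification genes need care because single barcodes carry them. A single control member held 87.8% of the 205 Cnfn UMIs of all control members, and 1 held 69.9% of the Sprr2f UMIs. Without the 5% of members with most UMIs, the control log2 ratio of Cnfn went from 2.18 to -0.65.

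Over the range of Malat1 shares, nuclear and splicing transcripts were higher in every successive bin of all 3 libraries, while ribosomal protein and mitochondrially encoded transcripts did not change in 1 direction throughout. From barcodes at 1 to 2% to those above 30%, nuclear transcripts went from 1091 to 8970 CPM in the control, 870 to 7440 in the photon and 1130 to 7116 in the proton library. Splicing genes went from 3970 to 18318, 3893 to 14850 and 4049 to 14918 CPM. Ribosomal protein genes were highest, among barcodes above 1%, in the 5 to 10% bin in the control and photon libraries, and lowest above 30%, at 208352, 240320 and 214735 CPM. The bin above 30% held only 9 control, 20 photon and 36 proton barcodes.

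**Figure D3:**
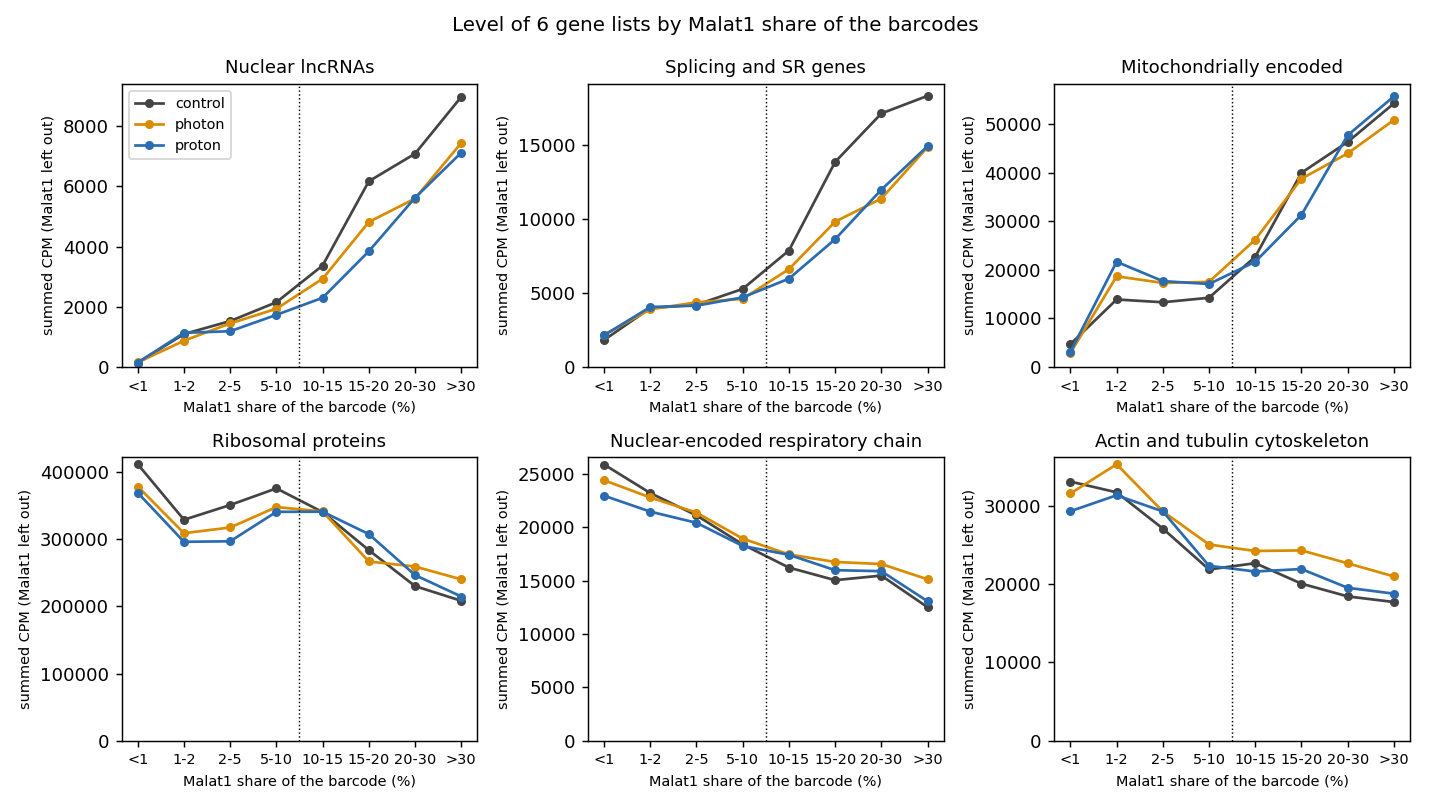
Summed CPM of 6 gene lists (Malat1 left out of the total) in barcodes grouped by Malat1 share in percent, 1 line per library, with a dotted line at the 10% limit. The nuclear, splicing and mitochondrially encoded lists are higher in each group above the limit, while the ribosomal protein, respiratory chain and cytoskeleton lists are lower above 30% than at 5 to 10%.

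Gene length went along with the ratios, as a property the rule did not use. In the control the median log2 ratio was -0.32 in the shortest and 0.58 in the longest of 5 equal groups by exonic length, over 4350 genes with a length. In the photon library it went from -0.25 to 0.38 and in the proton library from -0.26 to 0.29. Across genes the Spearman correlation was 0.50, 0.41 and 0.38. Genes share libraries and base composition, so they are not independent points. The few lncRNAs compared had medians of 0.57 (27 genes), 0.26 (53) and 0.33 (57). Genes with an inner run of A had medians of 0.16, 0.08 and 0.05, against -0.07, -0.04 and -0.06 for genes without.

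**Figure D4:**
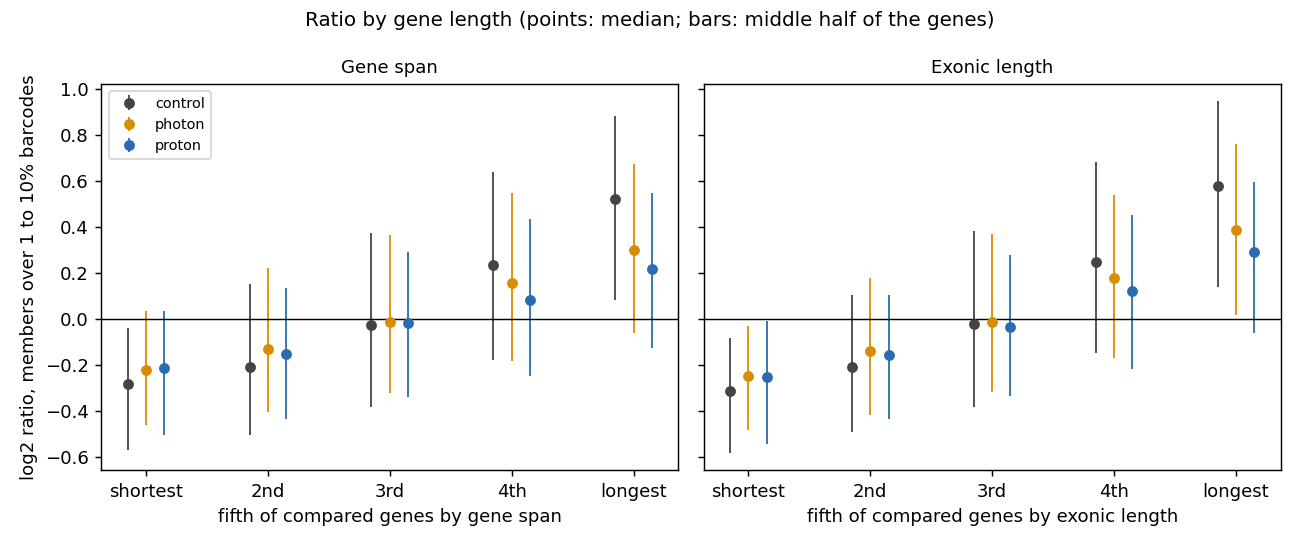
Log2 ratio of members over 1 to 10% barcodes in 5 equal groups of the compared genes, by gene span (left) and by exonic length (right). Points are medians and bars the interquartile range, and the medians step up from the shortest to the longest group in each library.

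Members were not uniform. A split at 4000 UMIs, chosen after the values were seen, left 158, 449 and 318 members below and 40, 81 and 141 at or above it. The latter held 50.9%, 39.4% and 61.3% of all member UMIs. Median Malat1 shares were 16.5%, 16.98% and 20.1% below the split and 10.9%, 12.0% and 12.1% above it. Median mt- shares were 3.62%, 3.45% and 3.57% below it and 1.60%, 1.53% and 1.53% above it.

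The ratios of nuclear transcripts were larger in members with few UMIs. Against the comparison barcodes, the nuclear list had log2 ratios of 1.92, 1.59 and 1.75 in members under 4000 UMIs and of 0.80, 0.61 and 0.61 in the others. Ribosomal protein genes were lower under the split, at -0.46, -0.28 and -0.32, but slightly higher above it, at 0.04, 0.12 and 0.12. Adm, the peptide adrenomedullin, Arf6 and P4ha1, a prolyl hydroxylase of collagen, led the genes higher above the split, ranked by the smallest of the 3 values. Cops2, Rhod, Nsa2, Sap30, Sfr1, Ptges3 and Naa10 came next. Adm and P4ha1 are known targets of low oxygen, but no list of such genes was compared. Adm was at 225.9, 96.73 and 133.1 CPM above the split, against 73.95, 29.64 and 33.60 under it. P4ha1 had log2 ratios of 1.01, 1.00 and 1.24. Tsix had log2 ratios of -2.77, -2.04 and -3.01, so it was lower above the split. The median over the 2764 genes compared was -0.24, -0.19 and -0.21.

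Irradiated members were then compared with control members. The photon and proton comparisons share the control library, so their values are not independent. At least 2-fold higher were 112 of 4682 genes (2.39%) after photons and 122 of 4586 (2.66%) after protons, and at least 2-fold lower 50 (1.07%) and 86 (1.88%). In both, 50 of 4375 genes (1.14%) were higher and 23 (0.526%) lower. With the median ratio of genes with at least 10 UMIs in both groups set to 0, these were 61 and 15.

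Interferon genes, which answer to foreign or damaged nucleic acid, were higher in irradiated members. Of 29 listed genes, 5 were compared after photons and 4 after protons, and all were higher, beside 51.2% and 48.8% of all genes. Control members held 80 UMIs of the list, so genes could pass the UMI limit mainly through irradiated members. The direction of the compared genes is therefore partly set by that limit. The summed list had log2 ratios of 1.10 (0.76 to 1.47) and 0.62 (0.27 to 0.99), on 903 UMIs in all. The comparison barcodes had 1.09 and 1.10. Within each library the list was lower in members than in comparison barcodes, at -0.34, -0.34 and -0.83. Bst2, which tethers viruses at the membrane, had 6 UMIs in control, 48 in photon and 44 in proton members. Isg15, a ubiquitin-like protein, was at 19.57, 40.67 and 28.01 CPM in control, photon and proton members, and at 12.79, 54.25 and 71.92 in comparison barcodes. The irradiated values of Isg15 thus were lower in members than in comparison barcodes. In the control Isg15 did not reach the limit for comparison, with 5 UMIs in members of at least 4000 UMIs and 4 in the others.

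Of the p53 targets, 16 of 20 were higher after photons and 15 of 19 after protons, with median log2 ratios of 0.35 and 0.42 beside 0.01 and -0.01 for all genes. In comparison barcodes 25 of 29 and 28 of 29 were higher, with medians of 0.30 and 0.39. Cdkn1a, the inhibitor that arrests the cell cycle, was at 461.0, 597.6 and 833.7 CPM in control, photon and proton members. The log2 ratio of Cdkn1a to control members was 0.37 (0.15 to 0.60) for photons and 0.85 (0.64 to 1.07) for protons. G2/M genes were lower, with summed log2 ratios of -0.80 (-0.96 to -0.64) and -0.51 (-0.66 to -0.36). In comparison barcodes they were -0.73 and -0.78, with 26 of 26 genes lower in each. Top2a, which untangles chromosomes, had -1.62 and -1.26, but 1 control member held 38.8% of its control UMIs. Mki67 had 20, 9 and 12 UMIs.

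The summed Notch list was higher in members, at 0.53, 0.59 and 0.58 against comparison barcodes. Of 7 genes compared, 3 were higher and 0 lower in all 3 libraries, beside 34% and 37.8% of all genes. Medians over the list were 0.14, 0.03 and 0.19, and Notch1 held 42.6% of its UMIs. After irradiation the summed list was 0.36 and 0.43 above the control in members, and 0.30 and 0.38 in comparison barcodes. Notch1, the receptor, was at 319.7, 538.7 and 560.9 CPM in members and at 187.2, 257.7 and 302.3 in comparison barcodes. After irradiation its ratio in members was 0.75 (0.49 to 1.02) and 0.81 (0.56 to 1.08). Hes1, a target of the pathway, had 0.81 and 0.95 after irradiation but 0.14, -0.10 and 0.07 in members against comparison barcodes. The ligands Jag1 and Jag2 had 0.60 to 0.93 in members against comparison barcodes in the 3 libraries.

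The genes with the highest ratios rested on few control UMIs. 8430408G22Rik had 0 UMIs in control, 41 in photon and 48 in proton members, at least 5.22-fold and 5.28-fold higher against a floor of 3 counts. Ddit4l, an inhibitor of mTOR signalling, had 6, 66 and 97 UMIs and log2 ratios of 1.99 (0.87 to 3.57) and 2.33 (1.24 to 3.90). Mgmt, which repairs alkylated guanine, had 4, 44 and 58 UMIs. Mrpl19, Dda1, Flrt3, Sssca1 and Lrrn4cl were the others, with log2 ratios of 1.67 to 2.27. Timp3, an inhibitor of matrix proteases, came lowest when ranked by the value nearer to 0, -1.66 (-2.55 to -0.89) and -1.65 (-2.49 to -0.91), on 30, 24 and 28 UMIs. In comparison barcodes it was 0.12 and -0.21. Sostdc1, Cnfn, Ssbp3, Glrx, Cenpf and Csrp1 were lower too, and in Cnfn and Glrx a single control member held 87.8% and 82.9% of the control UMIs.

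Cornification genes were lower in irradiated members, with summed log2 ratios of -0.46 and -0.92, against 0.11 and -0.12 in comparison barcodes. Without the 5% of members with most UMIs these became 0.52 and 0.05. Myoepithelial genes had -0.67 and -0.62 in irradiated members, on 3 genes compared, against -0.53 and -0.57 in comparison barcodes.

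Splicing genes were lower in irradiated than in control members. Their summed log2 ratio to the control was -0.30 after photons and -0.42 after protons in members, and -0.02 in both for comparison barcodes. Nuclear transcripts had summed ratios of -0.19 and -0.45 in members, and -0.02 and -0.16 in comparison barcodes. Neat1 held 54.8% of the member UMIs of this list. Of its 5 genes compared in members, 3 were lower and 2 higher after photons, and all 5 were lower after protons. Between protons and photons, 55 of 7151 genes (0.769%) were at least 2-fold higher after protons and 157 (2.2%) lower. Nme2, a nucleoside diphosphate kinase, had the highest ratio, 2.54 (1.53 to 4.28), and it was also higher in comparison barcodes at 2.13. Pyy, a gut peptide, had the lowest, -2.65, with 57.1% of its photon UMIs in 1 member.

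**Figure D5:**
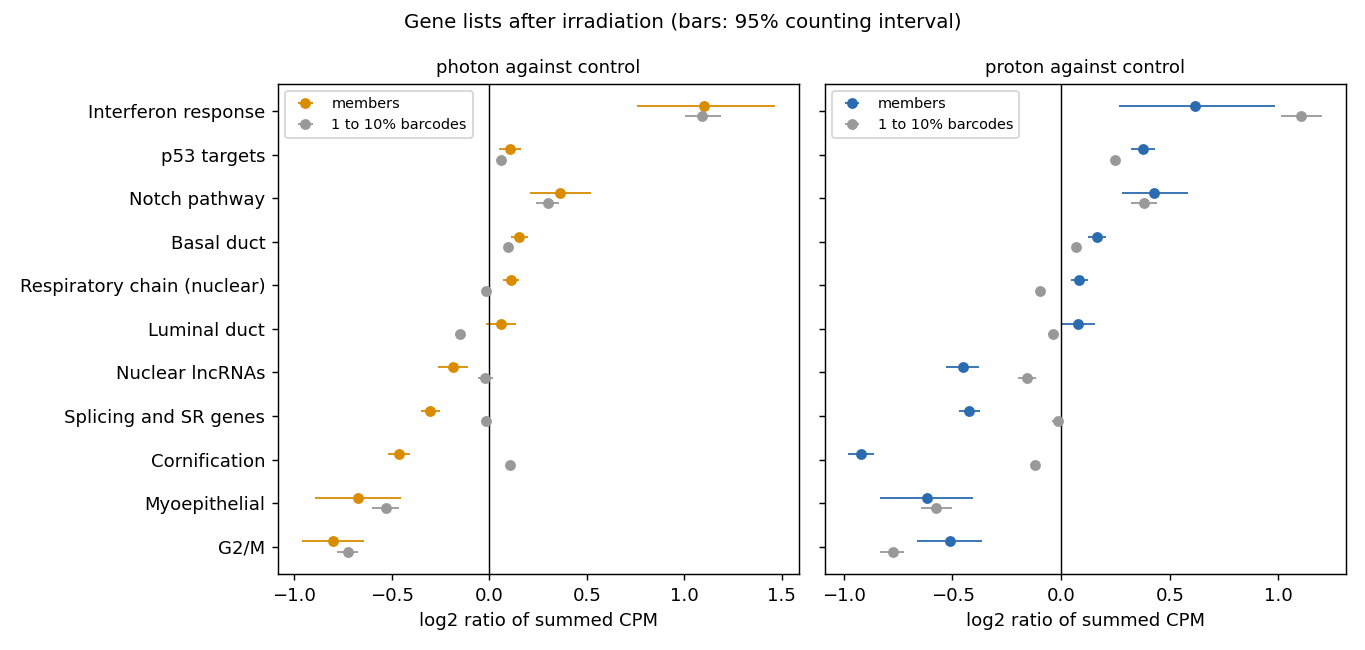
Log2 ratio of the summed CPM of 11 gene lists against the control, after photons (left) and protons (right), in members (coloured) and in barcodes with 1 to 10% Malat1 (grey), with 95% counting intervals. The interferon list is highest and the G2/M list among the lowest in members, and the splicing list lies below 0 in members but at 0 in the comparison barcodes.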

How the data were processed

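Single-cell RNA-seq of 5 libraries was deposited, and the 3 day 7 libraries were used (1 per group). For each, the authors deposited raw counts of UMIs for every gene and barcode in sparse form, already limited to barcodes with at least 500 UMIs. The processing notes name Cell Ranger 5 and mm10, the study's methods GRCm39, and the file headers software 3.0.1 for the day 7 matrices, so the build used for counting is not settled. Whether introns or strand were counted is not given in the sources used here. Genes were placed by the GENCODE vM39 annotation of GRCm39, which matched 30144 of 31053 IDs.

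UMIs were summed over the barcodes of a group, Malat1 was left out of the total, and groups were compared by the log2 of their CPM ratio after 1 CPM was added to each. Intervals (95%) were exact Poisson for CPM, conditional exact binomial for ratios and Clopper-Pearson for shares. They cover only the error of counting. No test was run, as every group is 1 library. Where a gene had 0 UMIs in the group it was compared with, a least fold was given against a floor of 3 counts. The log2 ratios did not use this floor. The comparison code was tested on simulated data. The doublet caller (Scrublet, scanpy 1.11.5) marked 0, 5 and 0 members, and removal was an alternative. Its automatic threshold failed in the control and photon libraries, where the expected rate was used.

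Genes were named by a rule: the 12 highest and 12 lowest ratios nearest to 0 over 3 libraries, the 8 highest and 8 lowest after irradiation, the 5 at either end between protons and photons, up to 4 genes with most UMIs per list, and the study's markers. Members, the 31 lists and the rule were chosen with earlier results of these data known. The study's limit of 2500 detected genes was not applied. Its wording removes barcodes below the limit, which would keep only 2, 7 and 9 members, and whether that was meant is not settled.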

Additional observations from a re-analysis of the deposited data

Results flagged for a closer look

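Several gene lists had summed log2 ratios to the control of opposite sign in members and in barcodes with 1 to 10% Malat1. No difference between these ratios was tested, since each group is 1 library. After photons, genes related to ribosomal RNA had -0.0793 in members and 0.12 in comparison barcodes, nuclear genes of the respiratory chain 0.112 and -0.0170, and cornification genes -0.46 and 0.11. After protons, genes related to ribosomal RNA had -0.21 and 0.10, chromatin regulators -0.0931 and 0.263, ribosomal protein genes 0.00935 and -0.146, respiratory chain genes 0.0840 and -0.0954, mitochondrially encoded genes -0.0412 and 0.358, cytosolic metabolism 0.115 and -0.0611, and luminal duct genes 0.0791 and -0.0390. Between protons and photons, ribosomal protein genes had 0.0363 and -0.0433. Several of these signs depend on the processing: over 16 alternatives the members' value changed sign under 5 for chromatin regulators, 5 for ribosomal protein genes in each comparison, 6 for mitochondrially encoded genes (0.24 with a Malat1 limit of 5%, 0.20 without the mt- limit), 6 for cornification genes, and 1 each for genes related to ribosomal RNA after photons and for respiratory chain and cytosolic metabolism genes after protons. The median over chromatin regulators was -0.28 in members and -0.03 in comparison barcodes, so the opposite sign is that of the sum. Targets of p53, summed, had log2 ratios of members to comparison barcodes of -0.0866 in the control, -0.0428 in the photon and 0.0417 in the proton library, which also was not tested. Perp held 62.4% of the UMIs of this list, the medians were 0.10, 0.17 and 0.21, and the summed value changed sign under 2, 2 and 7 of 17 alternatives.

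In the 11-day library, which entered no comparison, 10.7% (10.2 to 11.2) of 14266 barcodes had a Malat1 share of at least 10% at any mt- share, and 95.4% of these exceeded 5% mt-.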

How the results depend on the processing

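No paired analysis was possible because each treatment was 1 library and members were set apart from comparison barcodes of the same library by their measured values, which leaves a description. Counts of genes at least 2-fold higher and lower in members in all 3 libraries (78 and 3) were 131 and 32 without the control library, 17 lower without the photon library, 171 and 9 without the proton library, 11 and 30 with a Malat1 limit of 5%, 41 and 0 with 20%, 364 and 1 without the mt- limit, 40 and 0 after thinning to 500 UMIs, 32 and 13 with CPM over all UMIs, 5 lower with median-of-ratios scaling, 34 and 1 with a pseudocount of 10 CPM, 137 and 26 with at least 1 expected UMI, 33 higher with at least 30, 182 and 0 as means over barcodes, 7 lower without the 5% of members with most UMIs, 29 and 0 against UMI-matched barcodes, 180 higher with members under 4000 UMIs and 1 and 13 with the others. Median-of-ratios scaling lowered the log2 ratios of members to comparison barcodes by 0.21, 0.07 and 0.03. These are the medians over genes with at least 10 UMIs in both groups.

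Counts by treatment (50 higher, 23 lower, 212 different between protons and photons) were 101, 39 and 109 with a Malat1 limit of 5%, 16 and 15 higher and lower with 20%, 89 higher without the mt- limit, 19, 8 and 118 after thinning, 15 lower with median-of-ratios scaling, 23, 8 and 24 with a pseudocount of 10 CPM, 469, 254 and 1240 with at least 1 expected UMI, 10, 5 and 40 with at least 30, and 83, 38 and 346 as means over barcodes. The last count was 139 with members under 4000 UMIs and 134 with the others.

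Shares of members of all barcodes, and of those with at least 1% Malat1, in control, photon and proton libraries were 7.26%, 5.81% and 5.57%, and 47.6%, 66.8% and 72.2%, with a Malat1 limit of 5%. With 20% they were 0.640%, 0.842% and 0.928%, and 4.198%, 9.68% and 12.0%. Without the mt- limit they were 5.30%, 6.14% and 5.54%, and 28.6%, 47.6% and 49.0%. Under 4000 UMIs they were 2.30%, 2.46% and 1.78%, and 15.1%, 28.2% and 23.0%, and from 4000 UMIs 0.582%, 0.443% and 0.788%, and 3.82%, 5.09% and 10.2%. Of all barcodes with at least 1000 UMIs they were 6.57%, 4.43% and 5.27%. With doublets removed, photon and proton shares of all barcodes were 3.36% and 2.85%, and after thinning the proton shares were 2.88% and 36.1%.

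Some genes changed sign. Cnfn in control members had -0.22 with a Malat1 limit of 5%, -0.65 without the 5% of members with most UMIs and -0.012 under 4000 UMIs, and after photons 0.66, 0.90 and 0.63. Glrx after photons had 0.82 at 5% Malat1 and 0.95 without those 5% of members. Sprr1a in photon members had 0.49 at 5% Malat1 and 0.44 against UMI-matched barcodes, where Gjb2 in proton members had 0.52. Krt13 after protons had 0.016 at 20% Malat1, Sprr2f after protons 0.45 without the members with most UMIs, and Cnot10 in proton members 0.25 without the mt- limit. Sostdc1 had 0.076 after photons and 0.59 after protons under 4000 UMIs, and Clcn3 in photon members -0.23 from 4000 UMIs. The cause was not tested.

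Of 78 list ratios of members to comparison barcodes, 40 kept their sign under every alternative run, and of 78 by treatment 42 did. Ribosomal protein and translation lists changed sign in all 3 libraries with a Malat1 limit of 5% and with members of at least 4000 UMIs. The 4000 UMI split and the runs without a library were chosen after seeing the data.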

Other observations

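By the same rule, 71 of 10339 barcodes in the 11-day library (0.687%) and 4 of 11608 in fresh tissue (0.0345%) were members. Immediate early genes, which respond fast to stimulation, had summed log2 ratios of members to comparison barcodes of 0.19, 0.24 and 0.21, with 11 of 18 higher in all 3 day 7 libraries. Over all genes, 34% were higher in all 3. Heat shock genes had -0.28, -0.16 and -0.13, with 6 of 11 lower and 4 higher in all 3, beside 37.8% of all genes lower. Their medians were -0.12, -0.05 and -0.01, Hspb1 held 64.6% of the UMIs, and with a Malat1 limit of 5% the sums lay above 0 in all 3 libraries.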
